A study of Mus musculus with 2 samples.

Results

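The 8 genes described here belong to the Ms4a family and were taken by name from a list: Ms4a1, Ms4a4a, Ms4a4b, Ms4a4c, Ms4a6b, Ms4a6c, Ms4a6d and Ms4a7, out of 32285 features in the count matrices and beside 11 other features whose symbol starts with Ms4a. They were measured by droplet single-cell RNA sequencing (10x Genomics, 3′ chemistry) in CD45+ cells, the leukocytes, sorted from adrenal glands of C57Bl/6 mice aged 7 weeks. One group was a single library from female mice and the other a single library from male mice, of the same strain and age. How many mice went into a library is not given in the sources used here, so no difference between the libraries can be set against the spread between animals.

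Ms4a genes encode small proteins that cross the plasma membrane several times and sit beside receptors at the cell surface. The best known member, Ms4a1, encodes CD20, a surface protein of B cells, and Ms4a2 encodes a chain of the high-affinity IgE receptor of mast cells and basophils. Ms4a4a and Ms4a7 are known from macrophages, and Ms4a4b from T and NK cells, where its protein lies close to the costimulatory receptor GITR.

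The deposited matrices held 16218309 unique molecular identifiers (UMIs, each marking 1 captured transcript) over 3963 female barcodes and 9512670 over 2685 male barcodes, and 3694 female and 2449 male cells were kept. Each cell was placed in a class by the list of 6 marker genes of which it had most detected, and no Ms4a gene was in any list. The 6 main classes held 893 female and 948 male macrophages, 245 and 135 monocytes, 101 and 82 dendritic cells (DCs), 508 and 263 B cells, 693 and 373 T cells, and 856 and 358 NK cells. Transcripts of Ptprc, which encodes CD45, were found in 83.3% of female and 76.1% of male cells, and the libraries shared 2 barcode sequences. Levels are the UMIs of a gene scaled to 1000000 summed UMIs of a class (CPM). Intervals are exact 95% Poisson intervals for levels and exact conditional binomial intervals for ratios, and cover counting error only. Because 3′ chemistry counts molecules by their ends, these levels do not scale with transcript length.

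All 8 genes lie within 355 kb of chromosome 19 (GRCm38, GENCODE M21; bases 11249675 to 11604849), in the order Ms4a1, Ms4a7, Ms4a4a, Ms4a4c, Ms4a4b, Ms4a6c, Ms4a6b and Ms4a6d. Ms4a1 (11249675 to 11266241), Ms4a7 (11321039 to 11336146) and Ms4a6d (11586604 to 11604849) are on the minus strand. The genes between them, Ms4a4a (11375523 to 11392790), Ms4a4c (11404770 to 11427246), Ms4a4b (11443553 to 11467055), Ms4a6c (11469366 to 11482192) and Ms4a6b (11516512 to 11531256), are on the plus strand. No other annotated gene overlaps a member on its own strand. RefSeq promoter windows on GRCm38.p6 (250 bases before to 50 after a start site) were at hand for 6 of the 8 members, in 7 entries. Of the 21 pairs of these windows, 2 shared collinear identical stretches of at least 10 bases: Ms4a4b with Ms4a4c, in 8 stretches that covered 131 bases, and Ms4a6b with Ms4a6c, in 4 stretches that covered 96 bases and had a longest run of 48. These pairs are shown because the genes of each pair had different levels across the leukocyte classes, as described below. The windows are chr19:11443308-11443607 for Ms4a4b, chr19:11407411-11407710 for Ms4a4c, chr19:11518309-11518608 for Ms4a6b and chr19:11469118-11469417 for Ms4a6c, all on the plus strand, and capitals mark the bases in stretches shared with the partner.
Ms4a4b: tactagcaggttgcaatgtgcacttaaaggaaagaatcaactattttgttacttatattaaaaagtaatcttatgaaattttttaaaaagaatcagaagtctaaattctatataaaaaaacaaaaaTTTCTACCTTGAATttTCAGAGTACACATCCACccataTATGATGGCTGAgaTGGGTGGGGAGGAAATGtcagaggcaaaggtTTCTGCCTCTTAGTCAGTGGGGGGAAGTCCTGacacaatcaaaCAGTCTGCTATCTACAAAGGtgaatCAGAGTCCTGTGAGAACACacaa
Ms4a4c: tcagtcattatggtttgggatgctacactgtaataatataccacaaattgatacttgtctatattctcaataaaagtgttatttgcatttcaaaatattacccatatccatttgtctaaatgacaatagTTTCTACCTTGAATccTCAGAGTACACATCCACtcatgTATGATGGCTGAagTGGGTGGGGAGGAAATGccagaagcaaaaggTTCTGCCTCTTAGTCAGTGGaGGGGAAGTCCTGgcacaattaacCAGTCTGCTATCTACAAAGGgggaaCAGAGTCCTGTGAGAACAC
Ms4a6b: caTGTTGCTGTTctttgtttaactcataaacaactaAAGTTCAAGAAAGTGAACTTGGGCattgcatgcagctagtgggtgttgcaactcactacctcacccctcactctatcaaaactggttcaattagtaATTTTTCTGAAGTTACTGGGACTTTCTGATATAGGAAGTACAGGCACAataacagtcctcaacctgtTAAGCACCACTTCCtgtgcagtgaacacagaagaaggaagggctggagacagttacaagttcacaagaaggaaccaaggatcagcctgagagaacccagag
Ms4a6c: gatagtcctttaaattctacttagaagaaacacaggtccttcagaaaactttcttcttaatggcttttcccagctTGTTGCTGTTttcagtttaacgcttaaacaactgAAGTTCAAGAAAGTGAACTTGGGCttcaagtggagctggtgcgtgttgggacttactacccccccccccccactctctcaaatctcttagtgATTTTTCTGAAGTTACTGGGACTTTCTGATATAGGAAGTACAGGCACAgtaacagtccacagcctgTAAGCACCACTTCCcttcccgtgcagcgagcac

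The classes differed in which members made up most of their Ms4a UMIs. B cells carried Ms4a1, macrophages Ms4a7 and Ms4a6c, monocytes and DCs Ms4a6c, NK cells Ms4a4b, and T cells Ms4a4b with Ms4a6b. In B cells, Ms4a1 gave 81.9% of the 8 genes' UMIs in the female library and 79.3% in the male library. In NK cells, Ms4a4b gave 88.0% and 90.9%. T cells combined Ms4a4b (69.6% and 68.2%) with Ms4a6b (25.9% and 26.6%), so that these 2 members accounted for most of their Ms4a UMIs. In monocytes, Ms4a6c gave 50.7% and 53.1%, followed by Ms4a4c (21.1% and 18.1%) and Ms4a6b (19.02% and 20.0%). Macrophages had the most mixed set, with Ms4a7 at 32.2% and 35.0%, Ms4a6c at 29.5% and 31.0%, Ms4a6b at 18.1% and 17.0%, and Ms4a6d at 11.4% and 9.83%. Accordingly, 41.4% of female and 30.6% of male macrophages held UMIs of at least 4 members, against 22.0% and 20.0% of monocytes. For at least 3 members the shares were 62.2% and 46.2% of macrophages and 46.9% and 45.9% of monocytes. In NK cells, 1.17% and 0% held at least 4 members. These shares use all UMIs of a cell and so depend on its depth. Median UMI counts were higher in NK cells (4126 and 4858.5) than in macrophages (3403 and 2474), and were 2898 and 3045 in monocytes. The part of depth in the shares was not tested. For the male NK cells, 0 of 358 allows a share of up to 0.838%, which is a limit of 3 counts.

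**Figure D1:**
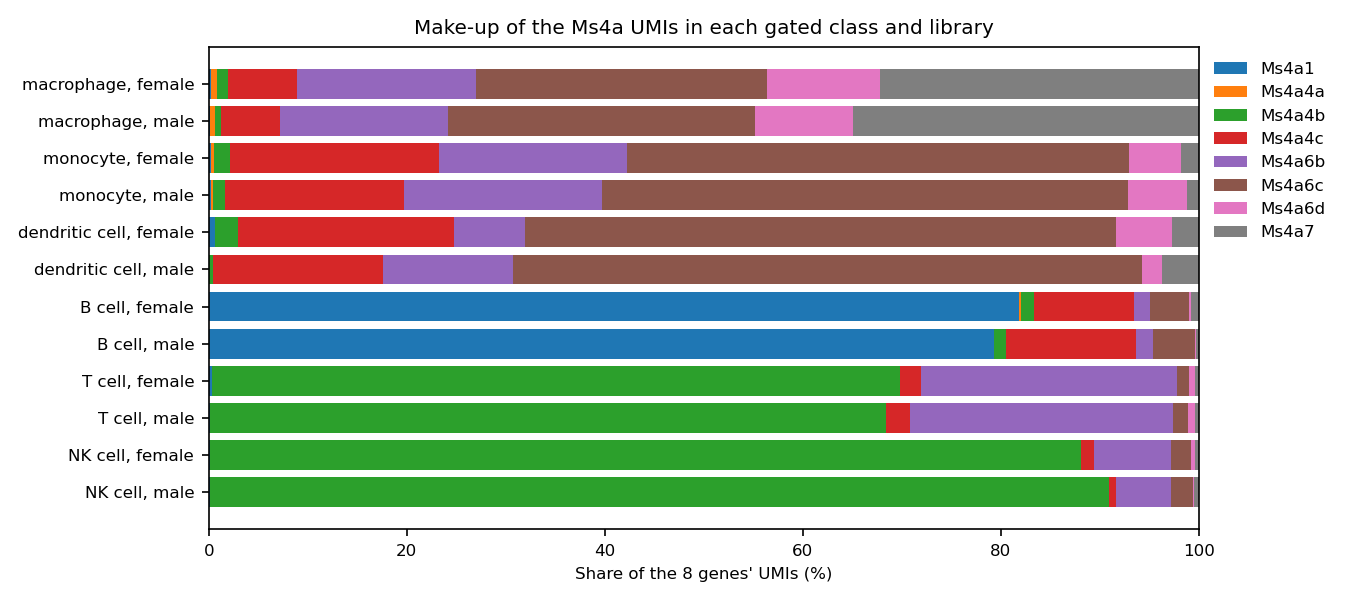
Make-up of the UMIs of the 8 Ms4a genes in the 6 gated classes of each library; each bar is a class and library, and each colour a gene's share of the 8 genes' UMIs in percent. B cells are filled by Ms4a1 (81.9% and 79.3%), NK cells by Ms4a4b (88.0% and 90.9%), and macrophages are divided among Ms4a7, Ms4a6c, Ms4a6b and Ms4a6d.

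A gene was called restricted when its highest class lay at least 4-fold above the second in both libraries. Among all genes that reached 50 UMIs over the 6 classes in either library, 2.92% (300 of 10258) were restricted, and among the 8 members 2 were: Ms4a1 and Ms4a7. Ms4a1 reached 1353 CPM (1298 to 1410) in female and 1171 CPM (1091 to 1255) in male B cells. In the other classes it was between 1.97 and 6.20 CPM in the female library and between 0 and 4.49 CPM in the male library. After each cell was thinned to 1000 UMIs, 63.5% of female and 61.8% of male B cells held a Ms4a1 UMI, against 0.29% and 0.275% of T cells. Follicular B cells (1276 and 1121 CPM, female then male) and innate-like B cells (1429 and 1160 CPM) both carried the gene. The follicular over innate-like ratios were 0.893 (0.798 to 0.998) and 0.967 (0.811 to 1.15). Innate-like cells were gated by a UMI of Mzb1 or Zcwpw1 and none of Fcer2a. Follicular cells had a UMI of Ighd or Fcer2a and none of Mzb1 or Zcwpw1. B1 and marginal zone cells were not told apart.

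Ms4a7 was the macrophage member. Its level was 919 CPM (888 to 951) in female and 778 CPM (748 to 809) in male macrophages, and the second class, monocytes, had 47.1 and 26.9 CPM. In female monocytes, 78.9% of the 38 Ms4a7 UMIs came from 5 cells. T cells, which served as a class lacking the gene, had 7.04 and 6.50 CPM, and thinned shares of cells with a UMI of 0.29% and 0.549% against 40.8% and 37.3% of macrophages. Outside the main classes, neutrophils of the female library had 452 CPM of Ms4a7 from 37 UMIs, all in at most 5 cells, and those of the male library 33.7 CPM from 3 UMIs.

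Ms4a4b marked lymphocytes other than B cells. Its level was 1501 CPM (1458 to 1545) in female and 1288 CPM (1232 to 1346) in male T cells, and 1205 CPM (1171 to 1239) and 1319 CPM (1268 to 1372) in NK cells, so that the class with the higher level was T cells in the female and NK cells in the male library. Macrophages, B cells, monocytes and DCs had between 2.45 and 43.4 CPM, and after thinning 2.59% and 1.64% of macrophages held a UMI against 66.2% and 61.3% of T cells. Among NK cells, the conventional type had 1455 CPM in the female and 1783 CPM in the male library and the ILC1-like type 884 and 849 CPM, ratios of 1.65 (1.54 to 1.76) and 2.10 (1.92 to 2.30). CD8 T cells had 1836 and 1750 CPM. CD4 T cells had 1744 CPM in the female library and 875 CPM in the male library, the latter from 156 UMIs in 43 cells, and the ratio of CD8 over CD4 was 1.05 (0.963 to 1.15) in females and 2.00 (1.69 to 2.39) in males. The few γδ T cells (19 and 15) had 1878 and 1100 CPM. These subsets did not divide all T cells, since a cell was placed only by UMIs of Cd4, Cd8a, Cd8b1 or Trdc. CD4 and CD8 T cells were 83 and 216 of 693 female and 43 and 111 of 373 male T cells. The T cells in no subset count only in the class. Each female subset lay above the level of all female T cells.

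Ms4a6b was shared between T cells and myeloid cells. The female and male levels were 559 and 502 CPM in T cells, 516 and 379 CPM in macrophages and 509 and 451 CPM in monocytes. NK cells had 107 and 81.8 CPM, DCs 49.1 and 78.3 CPM, and B cells 26.5 and 24.9 CPM. T cells over macrophages gave ratios of 1.08 (1.01 to 1.16) and 1.32 (1.21 to 1.45), and macrophages over monocytes 1.01 (0.911 to 1.13) and 0.840 (0.723 to 0.980). T cells over NK cells gave 5.21 (4.68 to 5.79) and 6.13 (5.16 to 7.33) for Ms4a6b, and 1.25 (1.197 to 1.297) and 0.976 (0.920 to 1.04) for Ms4a4b, so these classes were set apart by Ms4a6b far more than by Ms4a4b. CD4 T cells (849 and 589 CPM) and CD8 T cells (616 and 612 CPM) both had the gene, with CD8 over CD4 ratios of 0.726 (0.634 to 0.833) and 1.04 (0.831 to 1.31).

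Ms4a6c, whose promoter window shares the stretches above with Ms4a6b, was highest in monocytes, at 1357 CPM (1278 to 1440) in the female and 1196 CPM (1097 to 1303) in the male library. Macrophages followed with 841 and 691 CPM and DCs with 409 and 379 CPM, while T cells had 25.9 and 27.3 CPM. Ms4a6c thus lay above Ms4a6b in macrophages and far below it in T cells. After thinning to 1000 UMIs, 2.61% of female and 3.02% of male T cells held a Ms4a6c UMI, against 65.5% and 65.1% of monocytes. Among DCs, the gene was in cDC2 (642 and 537 CPM), the type that presents antigen mainly to CD4 T cells, more than in the cross-presenting cDC1 (75.6 and 156 CPM), with ratios of 8.49 (5.02 to 15.5) and 3.45 (2.28 to 5.38). In cDC1, 5 cells held 93.3% of the 15 female and 86.2% of the 29 male UMIs. Classical monocytes had 1478 and 1373 CPM and nonclassical monocytes 855 and 950 CPM.

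Ms4a4c, the partner of Ms4a4b by promoter stretches, was a myeloid and B cell member. Monocytes had 563 CPM (513 to 617) and 409 CPM (351 to 472) in the female and male library, macrophages 198 and 131 CPM, B cells 167 and 194 CPM, DCs 149 and 103 CPM, T cells 45.1 and 46.8 CPM, and NK cells 17.0 and 9.97 CPM. Within monocytes, B cells and DCs, the subset with the higher level was the same in both libraries. Classical monocytes, the Ly6c2-expressing cells that enter tissues from blood, had 661 and 552 CPM against 152 and 190 CPM in nonclassical monocytes, ratios of 4.34 (2.80 to 7.10) and 2.91 (1.96 to 4.43). The neutrophil list summed to 2776 and 9991 CPM in the classical and to 138 and 61.3 CPM in the nonclassical cells. The classical monocyte list summed to 9929 and 9637 CPM in the classical cells. In the nonclassical cells it summed to 3761 and 3468 CPM, beside 3420 and 3131 CPM of their own list. The parts of neutrophil RNA and of this overlap of the lists in the monocyte levels were not tested. Follicular B cells had 336 and 328 CPM against 88.0 and 97.1 CPM in innate-like B cells, ratios of 3.81 (2.85 to 5.11) and 3.37 (2.18 to 5.30). Across the same split of B cells, the Ms4a1 ratios given above were closer to 1. In cDC2 the level was 229 and 171 CPM against 35.3 and 21.5 CPM in cDC1, the latter from 7 and 4 UMIs.

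Ms4a6d and Ms4a4a were the other members that were highest in macrophages. Ms4a6d had 325 CPM (306 to 344) in female and 219 CPM (203 to 236) in male macrophages and 140 and 135 CPM in monocytes, with more in the classical than in the nonclassical type (175 and 194 CPM against 28.98 and 49.01 CPM from 4 and 8 UMIs). In B, T and NK cells it was between 1.46 and 14.3 CPM. Ms4a4a was sparse, with 68 and 33 UMIs in macrophages, which are 19.3 CPM (14.96 to 24.43) and 10.3 CPM (7.08 to 14.4). Monocytes had 8.68 and 4.49 CPM of it, from 7 and 2 UMIs. The macrophage over monocyte ratios were 2.22 (1.02 to 5.73) in the female and 2.29 (0.586 to 19.7) in the male library. No Ms4a4a UMI was found in DCs or T cells of either library, and 0 of 693 and 0 of 373 T cells allow a share of cells with a UMI of up to 0.433% and 0.804% by a limit of 3 counts, or 0.531% and 0.984% by the exact 95% interval.

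**Figure D2:**
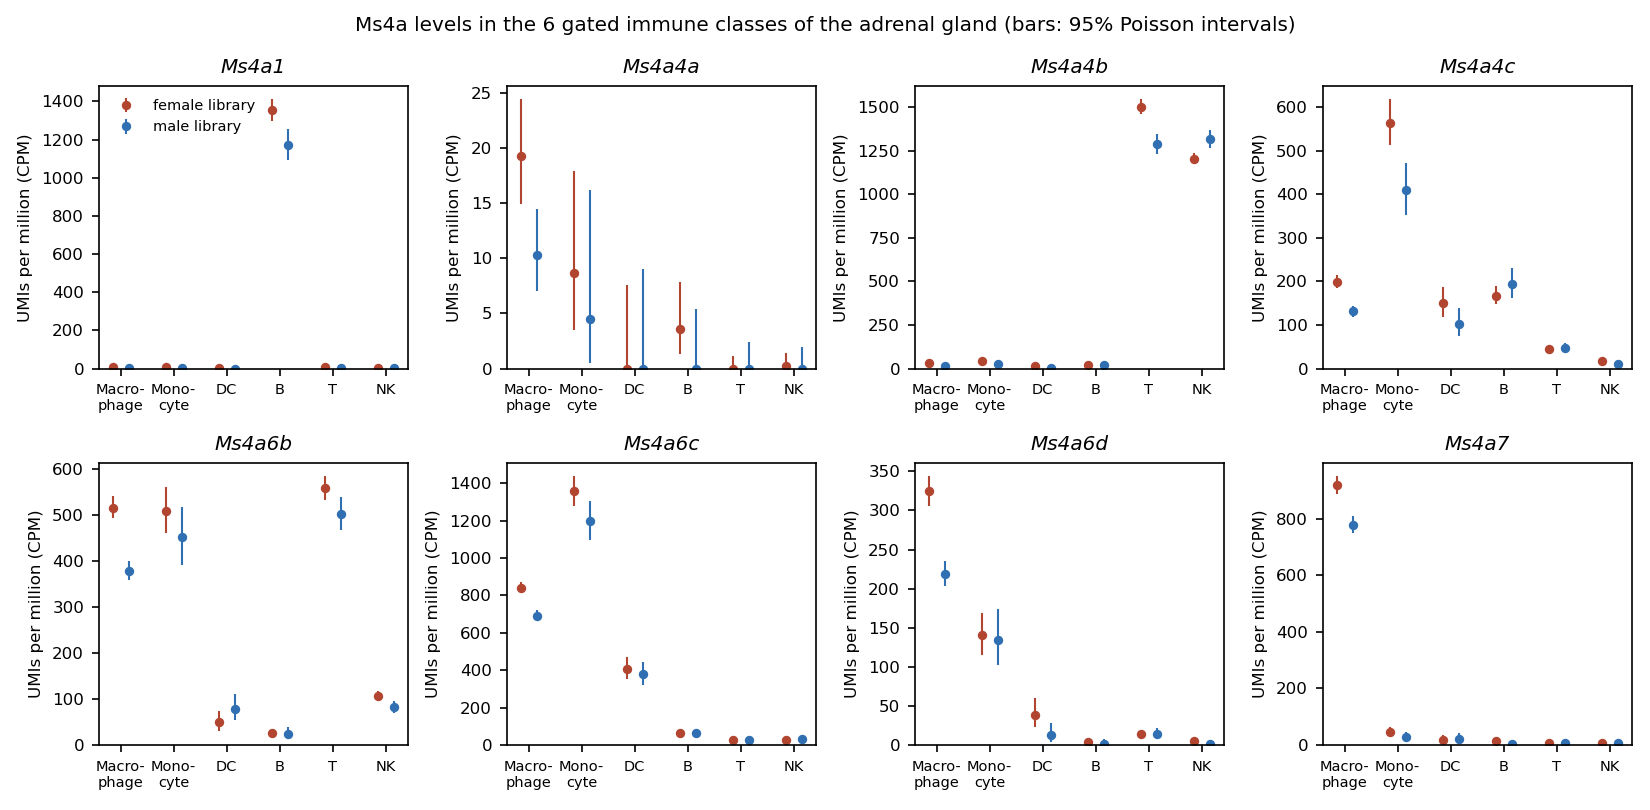
Levels of the 8 genes in the 6 classes, as CPM on linear axes that start at 0, with a point for each library (red female, blue male) and 95% Poisson intervals. Ms4a1 stands out in B cells (1353 and 1171 CPM), Ms4a7 in macrophages (919 and 778 CPM), and Ms4a6b is near 500 CPM in T cells, monocytes and female macrophages.

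The macrophages were divided further into 5 subsets without the use of Ms4a genes. Lyve1-high cells (79 female and 133 male), a type known from vessel-associated resident macrophages, and Aldh1a2-high cells (122 and 157) were gated first. The rest were cells with UMIs of at least 2 of Mmp12, Slc40a1 and Hpgds (201 and 190), and cells split by their MHC class II share. This was the share of their UMIs from the MHC class II genes Cd74, H2-Eb1, H2-Ab1 and H2-Aa. It divided them into low cells with at most 1% (143 and 21 cells) and high cells (342 and 435 cells). Median UMIs per cell were 4707 and 5184.5 in the Mmp12 subset against 2873.5 and 2042 in MHC class II high cells. The part of depth in the levels was not tested. Ms4a7 followed the division into subsets closely. Its level was 1514 and 1266 CPM (female, then male) in the Mmp12 subset, 954 and 805 CPM in MHC class II high cells, 612 and 360 CPM in Lyve1-high cells, and 233 and 175 CPM in Aldh1a2-high cells. Relative to MHC class II high cells, the ratios were 1.59 (1.47 to 1.71) and 1.57 (1.45 to 1.71) for the Mmp12 subset, and 0.245 (0.198 to 0.2997) and 0.218 (0.177 to 0.266) for Aldh1a2-high cells, nearly equal in the libraries.

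MHC class II low cells were the exception. Their Ms4a7 level was 415 CPM (365 to 470) in the female library, below that of MHC class II high cells with a ratio of 0.435 (0.377 to 0.499). In the male library it was 1214 CPM (904 to 1596), with a ratio of 1.51 (1.11 to 2.00). The male value comes from 51 UMIs in 21 cells, 90.2% of them in 5 cells. Without the 5 cells with most UMIs of the gene in each subset, the male ratio was 0.272 and the female ratio 0.349. Because this took 5 of 21 low but 5 of 435 high male cells, a lower male ratio followed from the removal itself. The male ratio also reversed with clusters in place of gates, where no loaded cells were removed, as given under the dependence on processing. Several marker lists were higher in the low than in the high cells of both libraries. The classical monocyte list summed to 658 against 256 CPM in females and 595 against 126 CPM in males, from 25 UMIs in the male low cells. The Lyve1-high list summed to 89.0 against 20.5 CPM and 262 against 38.2 CPM. The Aldh1a2-high list summed to 116 against 64.9 CPM and 738 against 237 CPM. The nonclassical list was lower in the female low cells (25.2 against 74.3 CPM) and higher in the male ones (119 against 70.4 CPM). The part of these markers in the Ms4a7 levels was not tested.

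In finer bins of the MHC class II share, over all macrophages outside the Lyve1-high and Aldh1a2-high gates, female Ms4a7 was 540 CPM in cells with at most 1% (166 cells), 575 CPM from 1% to 3% (133 cells), 937 CPM from 3% to 5% (174 cells), 1567 CPM from 5% to 7% (131 cells) and 2423 CPM (2256 to 2600) above 7% (82 cells). The male levels in the same bins were 1306 CPM (1059 to 1594) in 29 cells, 885 CPM in 124 cells, 908 CPM in 185 cells, 992 CPM in 166 cells and 1163 CPM (1082 to 1249) in 142 cells. Each female bin was thus above the one before it, though the intervals of the lowest bins overlapped (540, 488 to 596, and 575, 515 to 641). The male level spanned a narrower range. The bins also held the cells of the Mmp12 subset, which had 1514 and 1266 CPM of Ms4a7. The part of these cells in the bin levels was not tested. With MHC class II UMIs left out of the sum, the female levels ran from 541 to 2641 CPM in these bins. The median UMIs per cell were between 3162.5 and 3963.5 in the female bins, and between 1278.5 and 4582.5 in the male bins, where the lower bins held the shallower cells. With 1 library per sex this difference has no replicate check.

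**Figure D3:**
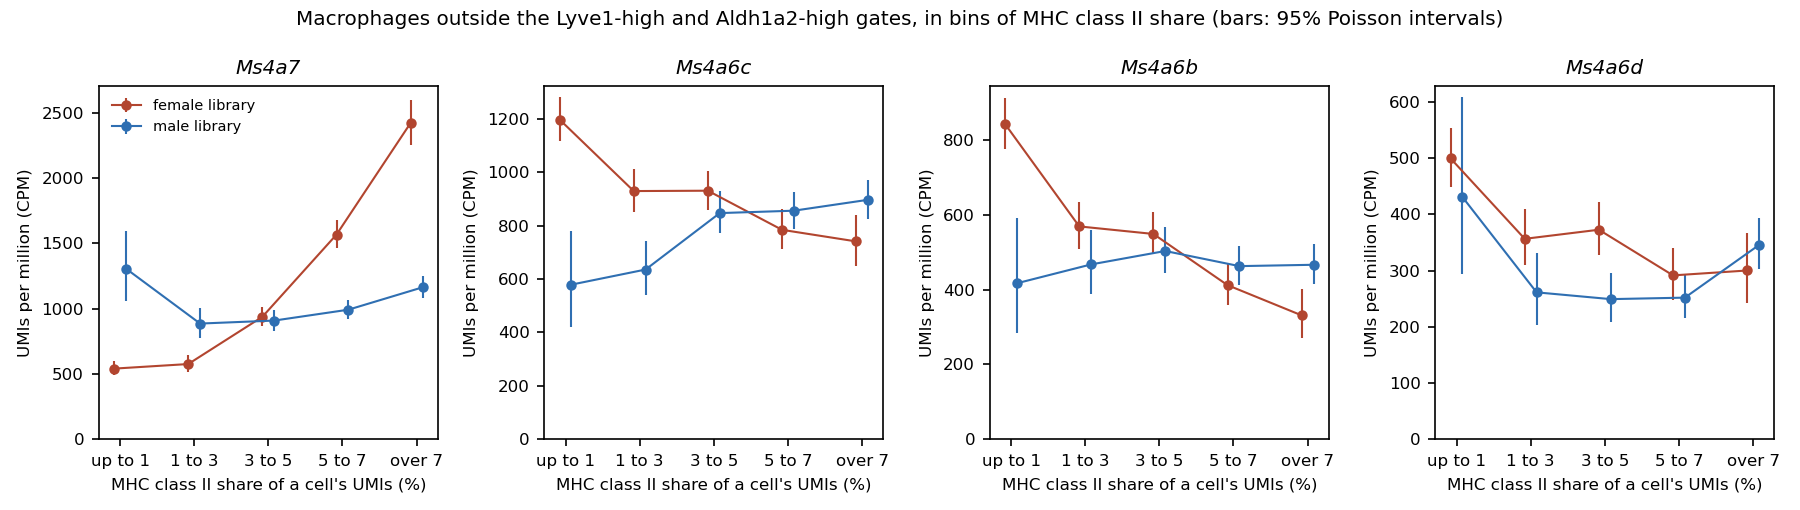
Levels of 4 genes (CPM, linear axes from 0, 95% Poisson intervals) in macrophages outside the Lyve1-high and Aldh1a2-high gates, in 5 bins of the share of a cell's UMIs from MHC class II genes; red is the female and blue the male library. Female Ms4a7 runs from 540 CPM in the lowest to 2423 CPM in the highest bin, while female Ms4a6b runs from 844 to 331 CPM.

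The Ms4a6 genes ran the other way in female cells. From the lowest to the highest bin, Ms4a6b went from 844 CPM (778 to 914) to 331 CPM (271 to 401), Ms4a6c from 1198 CPM to 741 CPM, and Ms4a6d from 500 CPM to 300 CPM. In the male library the same bins gave 417 and 467 CPM for Ms4a6b, 579 and 897 CPM for Ms4a6c, and 431 and 346 CPM for Ms4a6d. By subset, female MHC class II low over high ratios were 1.57 (1.40 to 1.77) for Ms4a6b, 1.30 (1.18 to 1.43) for Ms4a6c, 1.39 (1.19 to 1.62) for Ms4a6d and 1.48 (1.23 to 1.78) for Ms4a4c. The female MHC class II low cells were therefore low in Ms4a7 and high in these 4 members, relative to MHC class II high cells. Female classical monocytes were above the low cells in Ms4a6c (1478 against 1197 CPM) and Ms4a4c (661 against 348 CPM). They were below the low cells in Ms4a6b (575 against 861 CPM) and Ms4a6d (175 against 495 CPM). The male low over high ratios, in the same order of genes, were 1.16, 0.896, 1.66 and 0.582, with intervals that all included 1.

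Aldh1a2-high cells had the lowest levels of the 5 subsets for Ms4a7, Ms4a6b, Ms4a6c and Ms4a6d in both libraries. Ms4a6b was 116 and 109 CPM there, against 547 and 511 CPM in MHC class II high cells, and the ratios to those cells were 0.211 and 0.214 for Ms4a6b, 0.262 and 0.348 for Ms4a6c, and 0.204 and 0.213 for Ms4a6d. These cells also had the lowest sum of the macrophage markers (4250 and 5549 CPM, against 13503 to 16700 CPM in the other subsets), and the part of this in the Ms4a levels was not tested. Lyve1-high cells had Ms4a6b at 533 and 257 CPM, Ms4a6c at 713 and 434 CPM and Ms4a6d at 179 and 90.1 CPM.

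**Figure D4:**
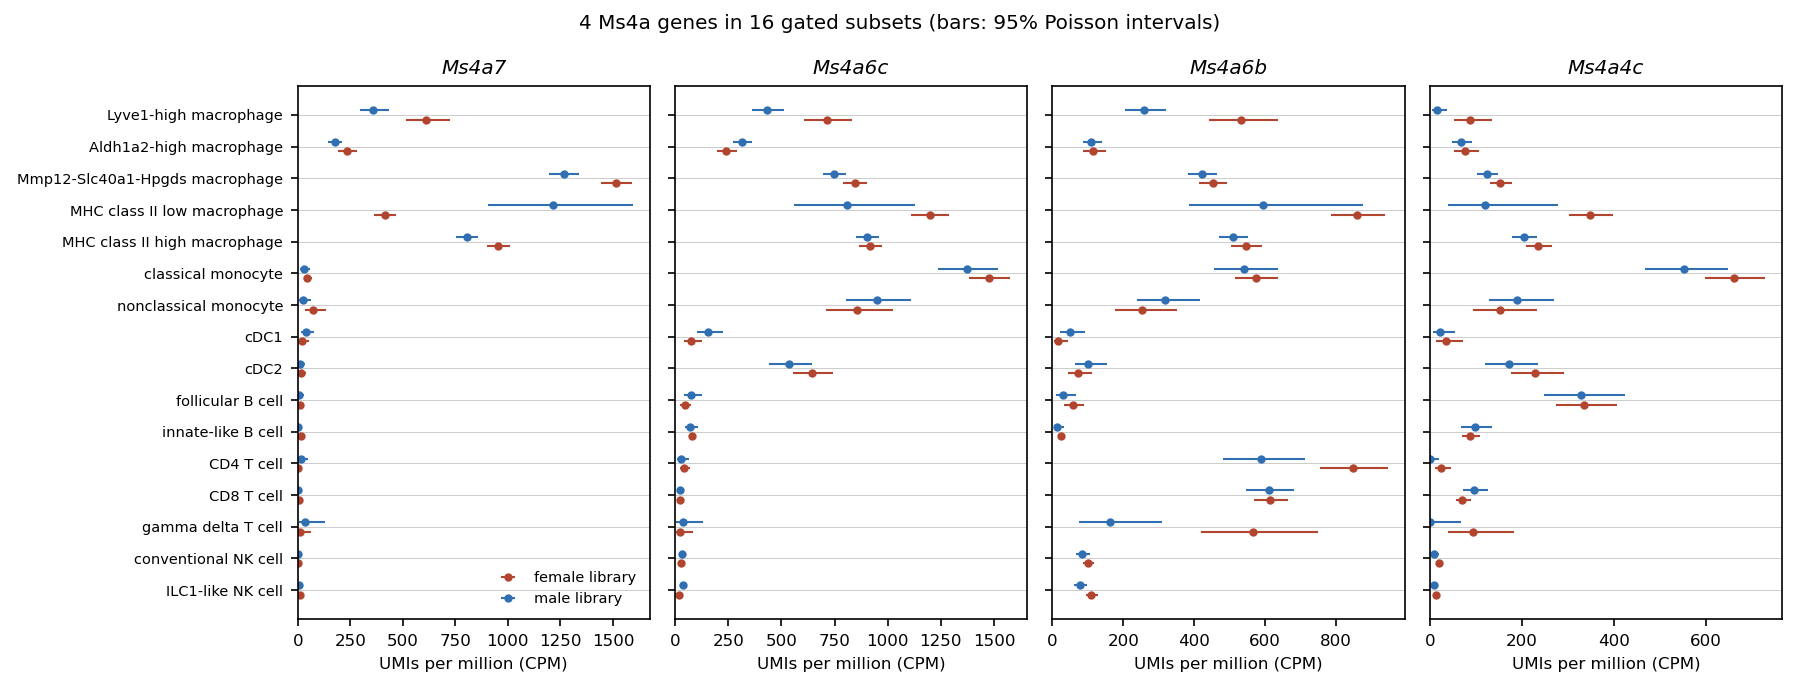
Levels of Ms4a7, Ms4a6c, Ms4a6b and Ms4a4c (CPM, 95% Poisson intervals) in 16 gated subsets, with red for the female and blue for the male library. Ms4a7 is above 170 CPM in the 5 macrophage subsets and at most 72.5 CPM in the other subsets shown, whereas Ms4a6b is also at 589 to 849 CPM in CD4 T cells and Ms4a4c at 328 to 336 CPM in follicular B cells.

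The female library was next compared with the male library within each class, among genes with at least 50 UMIs over both libraries in the class. In macrophages, 7 members passed this filter and 3 of them were past 1.5-fold (Ms4a4a, Ms4a4b and Ms4a4c), where 8.38% of all genes were. All 7 were higher in the female library, where 38.5% of all genes with at least 50 UMIs were. Their median ratio was 1.48, against a median of 0.955 over all genes. The ratios were 1.18 (1.12 to 1.24) for Ms4a7, 1.22 (1.15 to 1.29) for Ms4a6c, 1.36 (1.27 to 1.47) for Ms4a6b, 1.48 (1.35 to 1.63) for Ms4a6d, 1.52 (1.34 to 1.71) for Ms4a4c, 1.87 (1.22 to 2.93) for Ms4a4a and 2.06 (1.44 to 2.97) for Ms4a4b. Within MHC class II high cells the ratios were 1.02 (0.933 to 1.11) for Ms4a6c, 1.07 (0.957 to 1.199) for Ms4a6b and 1.15 (0.963 to 1.37) for Ms4a4c. Those of Ms4a7 (1.19, 1.09 to 1.29) and Ms4a6d (1.31, 1.13 to 1.52) were above 1 in these cells. In Lyve1-high cells the ratios were 1.64 (1.30 to 2.08) for Ms4a6c, 1.70 (1.32 to 2.20) for Ms4a7, 1.99 (1.202 to 3.34) for Ms4a6d, 2.07 (1.55 to 2.78) for Ms4a6b and 5.44 (1.98 to 18.5) for Ms4a4c, the last from 20 and 5 UMIs. The Lyve1-high cells of the libraries were not alike in their markers. Their own list summed to 3459 CPM in the female and 7011 CPM in the male cells. The Aldh1a2-high list summed to 3966 and 6992 CPM in the same cells. The part of this in the Lyve1-high ratios was not tested. In MHC class II low cells, with 21 male cells, the ratio of Ms4a7 was 0.342 (0.252 to 0.471). Those of Ms4a6c and Ms4a4c were 1.48 (1.05 to 2.15) and 2.92 (1.23 to 9.09) there. In Aldh1a2-high cells Ms4a6c was lower in the female library, at 0.765 (0.598 to 0.974), and Ms4a7 was higher, at 1.33 (1.01 to 1.76). The subsets thus did not share 1 ratio. Their make-up differed too: MHC class II low cells held 595671 of 3529137 female and 42022 of 3208225 male macrophage UMIs. The part of this make-up in the ratios of all macrophages was not tested.

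Ms4a4b in macrophages was at 29.5 CPM in the female and 14.3 CPM in the male library, and lymphocyte markers differed in the same direction: the NK list summed to 52.7 and 28.7 CPM, with UMIs of 6 of its 6 genes in each library, and the T cell list to 24.4 and 14.3 CPM, with UMIs of 6 and 5 of its 6 genes. Of the 104 female UMIs, 40.4% came from 5 cells. In Lyve1-high cells, female Ms4a4b was 78.7 CPM from 18 UMIs in 4 cells, beside 91.8 CPM of NK and 96.2 CPM of T cell markers. The part of lymphocyte RNA in these levels was not tested.

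In monocytes, 1 of 5 members passing the filter was past 1.5-fold, against 13.9% of genes. This was Ms4a7, at 1.75 (0.895 to 3.68) from 38 and 12 UMIs. Ms4a4c was 1.38 (1.16 to 1.65) and Ms4a6c 1.13 (1.02 to 1.26), while within classical monocytes their intervals included 1 (1.197, 0.990 to 1.46, and 1.08, 0.953 to 1.22). Neutrophil markers were higher in male than in female monocytes (6034 against 2151 CPM), and their part was not tested. In DCs, 1 of 3 members was past 1.5-fold, against 12.7% of genes: Ms4a6b, at 0.627 (0.353 to 1.10) from 24 and 32 UMIs. In B cells 0 of 4 members were past 1.5-fold, where 10.7% of genes were, and in T cells 0 of 5, where 7.56% were. The Ms4a1 ratio in B cells was 1.16 (1.07 to 1.25). In NK cells 1 of 4 members was past 1.5-fold, against 7.51% of genes: Ms4a4c, at 1.70 (1.01 to 3.00) from 69 and 19 UMIs. In all classes but macrophages the members past 1.5-fold thus rested on at most 69 UMIs in a library. The same held for Ms4a4a in macrophages, with 68 female and 33 male UMIs. Ms4a4b was 1.17 (1.11 to 1.23) in T cells and 0.913 (0.870 to 0.959) in NK cells, and conventional NK cells gave 0.816 (0.766 to 0.870) and CD4 T cells 1.99 (1.67 to 2.39).

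**Figure D5:**
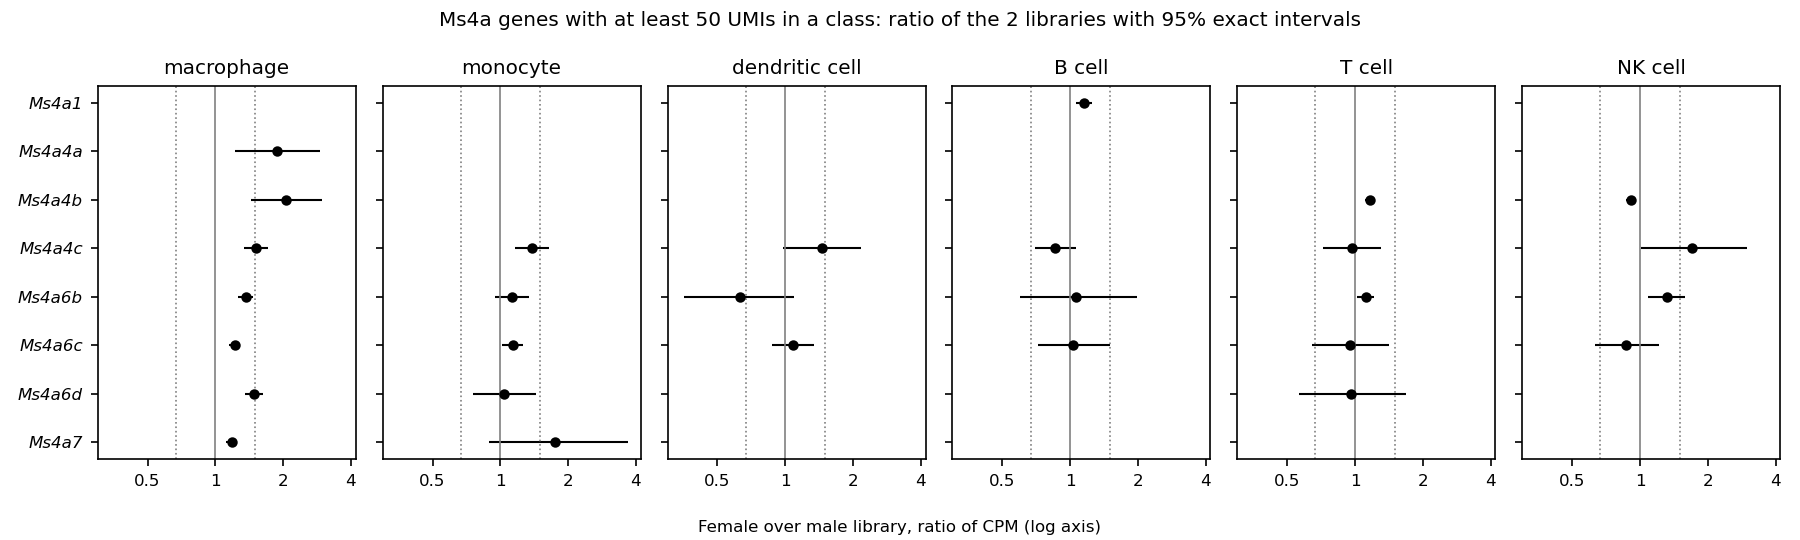
Ratio of the female to the male library (log axis) for members with at least 50 UMIs in a class, with 95% exact conditional binomial intervals; the solid line is 1 and the dotted lines mark 1.5-fold in either direction. All 7 macrophage points lie above 1, with a median of 1.48, where 38.5% of all genes with at least 50 UMIs in macrophages did. The points of B and T cells lie within 1.5-fold.

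Patterns were compared over 30 points, the subsets of each library with at least 20 cells, by Pearson's r of log2(CPM + 10) among 7792 genes with at least 200 UMIs over these points. The points share libraries and the gates used some of the genes below, so r is a description. Ms4a1 was most like Blk, a kinase of the B cell receptor pathway (r = 0.978), followed by Fcmr and Cd79b, both of which were in the B cell marker list. Ms4a4b was most like Thy1, a surface protein of T and NK cells (0.974), Gm2682 (0.974) and Prkcq, a kinase of T cell receptor signalling (0.971). Ms4a7 was most like Cd63, a protein of lysosomal membranes (0.966), C1qb, which was in the macrophage marker list (0.965), and Trim47 (0.965). Ms4a6d was most like Bst2, an interferon-induced membrane protein used in another list (0.943), Atp6v0c, a subunit of the lysosomal proton pump (0.934), and Trem2, a lipid-sensing receptor of macrophages (0.926). Ms4a6c was most like Pirb, an inhibitory receptor of myeloid cells (0.951), Plxnb2 (0.951) and Igsf6 (0.947). The broader patterns of Ms4a6b (Fyb, 0.860; Arl4c, 0.802; Xaf1, 0.799) and Ms4a4c (B3gnt8, 0.770; Nuak2, 0.756; Gngt2, 0.728) had less close matches, and Ms4a4a had too few UMIs. With 50 CPM added in place of 10, 11 of the 21 named genes were named again. Between members, r was 0.879 for Ms4a6d with Ms4a7, 0.834 for Ms4a6c with Ms4a6d, 0.411 for Ms4a6b with Ms4a6c, and -0.54 for Ms4a4b with Ms4a4c.

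Of the 11 other Ms4a features, 4 had no UMI in the cells kept, 5 had between 1 and 49, and 2 had more. Ms4a8a (192 UMIs) was highest in monocytes (47.1 CPM in both libraries) and Ms4a14 (94 UMIs) in macrophages (13.3 and 12.8 CPM). Ms4a2, named after its values were seen, had 49 UMIs and reached 527 and 658 CPM in the 23 and 7 cells gated as mast cells or basophils. Genes whose products work beside Ms4a proteins or in the same receptors were read from a list, and those named here each had the same highest main class in both libraries. Trem2 (315 and 196 CPM), its adaptor Tyrobp and the adaptor Fcer1g were highest in macrophages, as Ms4a7 and Ms4a6d were. Syk, Cd79a, Cd79b, Cr2 and Cd22, of B cell receptor signalling, were highest in B cells with Ms4a1, and Cd79a and Cd79b were in the B cell marker list. Tnfrsf18, which encodes GITR, was highest in NK cells (139 and 153 CPM), and Cd4 and Cd8a in T cells.

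Reads of close paralogs can be hard to assign. In the last 500 bases of the members' coding transcripts, 55-base words, the length of the reads, occurred also in transcripts of another gene for 3 of the 8 members: 9.34% of the words of Ms4a4c (shared with Ms4a4b and Ms4a4d), 11.7% of those of Ms4a6c (shared with Ms4a6b, Gm44997 and Prdm11) and 0.673% of those of Ms4a6b (shared with Ms4a6c). For Ms4a1, Ms4a4a, Ms4a4b, Ms4a6d and Ms4a7 no word was shared.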

How the data were processed

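The authors aligned the reads with Cell Ranger 4.0.0 against mm10, and the submitters' processing notes also name DropletUtils 1.4.3. The deposited values are raw UMI counts per gene and barcode, not normalized, with at least 500 UMIs in every barcode. Barcodes with under 200 genes or over 15% mitochondrial UMIs were left out, and Scrublet scores removed 123 female and 53 male barcodes, at a rate of 0.8% per 1000 barcodes, in place of its own threshold, which marked 1 and 8. A cell was gated by the marker list with most genes detected (at least 2, and 1 more than the next class), and 412 female and 287 male cells led by exactly 1 gene. Counts were summed per library and class. With 1 library per sex no test was made and no p-value is given; the pairs of libraries are compared by size. Named genes were the members, the other Ms4a genes with at least 50 UMIs, a fixed list (not all of which is reported here), and the 3 genes most like each member. The members and lists were chosen with earlier results of these data known. The scripts used Python 3.11.15, scanpy 1.11.5, numpy 2.4.6, scipy 1.17.1, pandas 2.3.3 and matplotlib 3.10.9, and were tested on simulated data. Alternatives were other filters, gates, doublet handling, clusters, means over cells and UMI minimums; 3 of them, both other MHC class II boundaries and a minimum of 1000 UMIs per cell, were added after the data were seen.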

Additional observations from a re-analysis of the deposited data

Results flagged for a closer look

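The Ms4a7 ratio of MHC class II low over high macrophages lay on opposite sides of 1 in the libraries, at 0.435 in the female and 1.51 in the male library, and neither interval included 1. The male value rests on 21 low cells, of which 5 held 90.2% of the UMIs. The difference between the libraries was not tested.

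For Ms4a4b, the female over male ratio was 2.06 in macrophages and 1.17 in T cells, but 0.913 in NK cells, with intervals on opposite sides of 1. The difference between the classes was not tested.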

How the results depend on the processing

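No paired analysis was possible because each sex had 1 library and no result comes from a test. Of 162 levels, 45 moved out of their interval, among them 14 of 18 with a mitochondrial ceiling of 1.2%, 11 of 18 with the mean of each cell's CPM and 9 of 18 without the 5 most loaded cells. Of 234 female over male ratios under the alternatives, 214 stayed within their interval, 19 moved and 1 reversed, and of 219 subset ratios 179 stayed, 37 moved and 3 reversed. A ceiling of 1.2%, the number in the study's methods read as a percent of UMIs, left 323 female and 354 male cells. Its scale is unsure, since the study kept most barcodes, so this need not be the study's filter. Under it the Ms4a7 macrophage ratio of the libraries reversed to 0.834 and the male Ms4a4b ratio of conventional over ILC1-like NK cells to 0.809. The male Ms4a7 ratio of MHC class II low over high cells reversed to 0.962 with clusters in place of gates and to 0.272 without the 5 most loaded cells. The causes were not tested, beyond the fewer cells that the first and last of these leave by construction.

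Counts of members past 1.5-fold moved as follows. With the 1.2% ceiling they were 2 in monocytes, 2 in T cells and 0 in NK cells, and 0 members were restricted; with a 5% ceiling they were 2 in DCs. Without doublet removal they were 0 in monocytes, 1 in B cells and 2 in NK cells. With the mean of each cell's CPM they were 1 in macrophages and 0 in monocytes. Without the 5 most loaded cells they were 2 in DCs and 1 in B cells, with the stricter gate 0 in DCs, and with clusters 0 in NK cells. A minimum of 200 UMIs gave 1 in macrophages and 0 in monocytes, DCs and NK cells, and a minimum of 10 gave 2 in monocytes, 2 in DCs, 1 in B cells, 1 in T cells and 3 in NK cells. The cause was not tested, except that UMI minimums change which members are counted. Members with few UMIs in a class, such as Ms4a4a, are limited by depth.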
